A study of Mus musculus with 12 samples.

Results

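A set of 9 direct target genes of the tumor suppressor p53 was followed across normal mammary gland, transgenic gland, breast tumors and breast cancer cell lines of the mouse. The set was defined by symbol as Trp53, which encodes p53, and Mdm2, Ccng1, Perp, Trp53inp1, Sesn1, Btg2, Epha2, Psrc1 and Gtse1, with every probe set annotated to them. A probe set is a group of oligonucleotides on the array that together report 1 transcript. Of these 10 genes, 9 had a probe set, 18 in all, among 12393 genes with a probe set on an array of 22690. Trp53 was paired with no probe set in the annotation used here, so its own level was not analysed here. Of the 9 genes, 3 had 1 probe set, 3 had 2 and 3 had 3.

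RNA was measured on 12 single-color arrays. Mammary glands of female NMRI mice without the transgene (3 samples) and of female WAP-SVT/t mice (3 samples) were taken on day 1 of lactation. A further 3 samples were breast cancers of female WAP-SVT/t mice, which are of the NMRI strain too. WAP-SVT/t mice make the simian virus 40 T and t antigens in mammary epithelium only, per the labels, and Wap is a milk protein gene whose promoter is active in late pregnancy and lactation. Of the breast cancer cell lines, 1 array each was made for ME-A, for ME-B, which the labels name a revertant, and for ME-B-T/t, named retransformed. The sources used here give no ages. Whether the samples of a group came from separate animals is not stated beyond their numbers, so p-values measure the spread between these samples, which may be technical.

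The p53 protein is a transcription factor that is held at low levels by Mdm2, a ubiquitin ligase that marks it for degradation, and that accumulates after DNA damage and other stress. It then activates genes that stop the cell cycle, repair DNA or start cell death, and Mdm2 itself is among them, which closes a feedback loop. Large T antigen of simian virus 40 binds p53 and blocks its activity as a transcription factor, and in the mammary gland p53 is best known as a suppressor of breast cancer.

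p53 binds pairs of a short palindromic motif, here called the p53 decamer, and promoters of the measured genes were searched for its consensus to show where such letters lie beside the genes whose values follow. RefSeq promoter windows of GRCm38.p6, each from 250 bases before to 50 bases after a transcription start, were held for 7 of the 9 measured genes (10 windows). Windows of 4 genes held a match of 10 letters to the consensus, which reads the same on both strands, and 9.55% of 27025 genes with a window (8.36% of 32851 windows) held one. A match is a description of letters and not a measured binding site. The stretches below run in the direction of transcription, with the decamer in capitals. They lie at chr10:41887236-41887305 on the plus strand for Sesn1, chr10:117710905-117710974 on the minus strand for Mdm2, chr11:40755432-40755501 on the minus strand for Ccng1 and chr15:85859945-85859974 on the plus strand for Gtse1. The decamer starts 173 bases before the start of transcription in Sesn1, 186 before it in Mdm2, 185 before it in Ccng1 and 10 after it in Gtse1.
Sesn1: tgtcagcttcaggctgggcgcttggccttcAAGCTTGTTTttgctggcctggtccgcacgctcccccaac
Mdm2: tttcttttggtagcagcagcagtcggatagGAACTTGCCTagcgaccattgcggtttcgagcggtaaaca
Ccng1: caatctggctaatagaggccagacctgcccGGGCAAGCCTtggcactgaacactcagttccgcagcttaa
Gtse1: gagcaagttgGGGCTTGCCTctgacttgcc

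Both the state of the RNA and the mix of cells varied over the arrays. The Gapdh ratio, of the control signal at the 3-prime end of the transcript over that at its 5-prime end, grows as RNA is degraded. It lay between 2.28 and 40.3 in the 6 glands, between 0.969 and 5.63 in the tumors and between 0.753 and 0.949 in the lines. Of 10 skeletal muscle markers, the mean log2 signal ranged from 10.04 to 11.1 in NMRI glands, from 6.46 to 10.9 in transgenic glands and from 5.90 to 9.90 in tumors. For 7 adipocyte markers it ranged from 9.83 to 11.4 over the 6 glands and from 7.01 to 9.30 over the tumors. Luminal epithelial markers (8 genes) stood between 11.0 and 12.2 in all tissues and at 11.6 in ME-A, but at 6.65 in ME-B and 6.25 in ME-B-T/t, where 4 and 5 of the 8 were at the floor. In whole tissue, fewer cells of a type and less RNA per cell cannot be told apart.

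**Figure D1:**
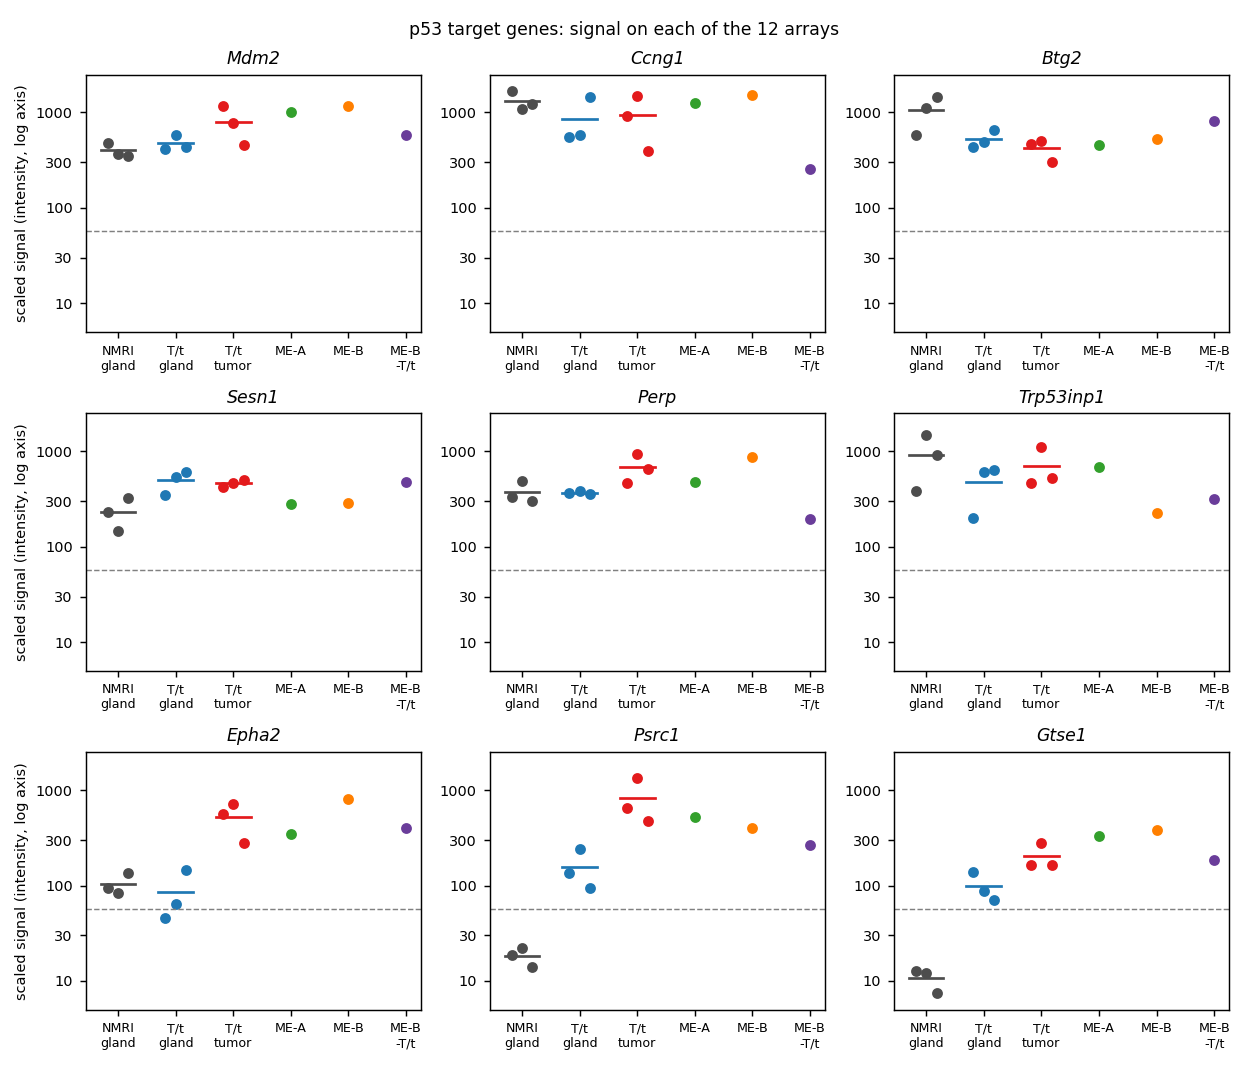
Scaled array signal (intensity, log axis) of the 9 measured p53 target genes on each of the 12 arrays, with 1 probe set per gene. Points are arrays, in the order of their replicate numbers, bars are means of groups of 3, and the dashed line is the floor of 57.4. Psrc1 and Gtse1 lie below the floor in all 3 NMRI glands and above it on the other 9 arrays, Epha2 is far higher in tumors than in glands, and Ccng1 and Perp are lowest of the lines in ME-B-T/t.

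Transgenic and NMRI glands were compared to show how p53 target genes stand in glands that carry the transgene. Sesn1, which encodes a stress protein, rose in transgenic glands, and it was the 1 of the 9 genes that passed an adjusted p of 0.05 by limma's test. Of all 7899 genes tested 10.1% passed, 6.06% as higher and 4.05% as lower. The microtubule-associated genes Psrc1 and Gtse1 were at the floor in NMRI glands and above it in transgenic glands but did not pass, and the feedback regulator Mdm2 and the membrane protein gene Perp had nearly equal means. Levels are scaled array signals (intensity), and differences are log2 differences ± standard error; signals under the floor of 57.4 entered the test at the floor.

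Sesn1 encodes a sestrin, which restrains the growth kinase complex mTORC1. Its signals were 233.5, 146.8 and 321.2 in NMRI glands 1 to 3 and 351.5, 542.5 and 612.7 in transgenic glands 1 to 3. All transgenic glands were above all NMRI glands, by a log2 difference of 1.14 ± 0.32 (adjusted p = 0.0448). The call depended on single arrays: it was lost without NMRI gland 1 or 2, transgenic gland 2 or 3, or any 1 of the 3 tumors, which share the estimate of spread (adjusted p between 0.0535 and 0.166). The probe set behind it is of a kind that can be shared by transcripts of more than 1 gene. The next Sesn1 probe set, of the same kind, differed by 0.36 ± 0.39 (adjusted p = 0.622). The dimmest Sesn1 probe set, not of this kind, was too near the floor to be tested. It read between 52.0 and 84.4 in NMRI glands and between 87.7 and 136.1 in transgenic glands, without overlap.

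Psrc1, which encodes a microtubule-binding protein of the mitotic spindle, was at 18.6, 22.1 and 14.1 in NMRI glands and at 134.8, 240.9 and 95.5 in transgenic glands. The groups did not overlap and the difference was at least 2.54-fold, but it missed the threshold (log2 difference 1.34 ± 0.41, adjusted p = 0.0641). A second Psrc1 probe set overlapped, with NMRI gland 2 at 87.0 and the transgenic glands between 84.4 and 93.7 (0.44 ± 0.39, adjusted p = 0.529). Gtse1, whose protein binds microtubules in G2 and moves p53 out of the nucleus, was at 12.6, 12.1 and 7.4 in NMRI glands and at 140.5, 88.6 and 71.2 in transgenic glands. Again no arrays overlapped, with at least 1.67-fold between the groups (0.74 ± 0.34, adjusted p = 0.190). The floor set these sizes: with it at the 20th percentile of all signals in place of the 30th, Psrc1 differed by 2.25 (adjusted p = 0.00711) and Gtse1 by 1.65 (adjusted p = 0.0213), and both passed. Without overlap stood 3 of the 9 genes, all higher in transgenic glands, against 31.1% of all genes in either direction (16.3% as higher and 14.8% as lower).

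The antiproliferative gene Btg2, a cofactor of mRNA deadenylation, was at 579.2, 1113.6 and 1466.0 in NMRI glands and at 433.7, 493.2 and 660.4 in transgenic glands, and the groups overlapped (-0.91 ± 0.36, adjusted p = 0.131). Ccng1, which encodes cyclin G1, a partner of the phosphatase PP2A that acts on Mdm2, was at 1689.0, 1092.0 and 1218.5 against 548.5, 581.5 and 1451.7. By this brightest probe set transgenic gland 3 stood among the NMRI glands, while the others lay far below them (-0.76 ± 0.49, adjusted p = 0.354). The skeletal muscle markers split the same way, with a mean log2 signal of 10.9 in transgenic gland 3 and of 6.46 and 6.86 in transgenic glands 1 and 2, and their part in the Ccng1 values was not tested. Another Ccng1 probe set was lower in all transgenic glands, between 139.7 and 300.3 against 303.6 to 638.9 (-0.97 ± 0.46, adjusted p = 0.217). The remaining Ccng1 probe set overlapped (-0.56 ± 0.37, adjusted p = 0.377). Trp53inp1, a stress-induced gene whose protein promotes p53 phosphorylation and autophagy, was at 382.4, 1470.1 and 922.8 against 201.5, 605.7 and 636.6 (-0.91 ± 0.56, adjusted p = 0.336).

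For 3 further genes neither direction was clear. Mdm2 was at 401.4 ± 70.3 in NMRI and 474.9 ± 86.6 in transgenic glands (SD, n = 3 each), a log2 difference of 0.24 ± 0.33. Perp, a desmosomal membrane protein that takes part in p53-dependent cell death, was at 373.8 ± 98.4 and 370.1 ± 16.1, and the 95% interval of its log2 difference of 0.02 ran from -0.62 to 0.66. The ephrin receptor kinase gene Epha2 was at 104.8 ± 27.0 and 85.3 ± 53.7, with 1 transgenic gland under the floor.

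The labels do not state that sample numbers pair the glands, and a pairing was inferred from these same values. Same-numbered NMRI and transgenic glands deviated together from their group means over 7899 genes, with correlations of 0.22, 0.37 and 0.37. Correlations between NMRI and transgenic glands of unlike number ran from -0.34 to 0.059. Transgenic gland 3 and tumor 1, which share no number, also correlated, at 0.34. The block fits below rest on this inference. With the number as a block in a fit of the 6 glands, 3 members passed, which were Sesn1 (1.14, adjusted p = 0.0354), Trp53inp1 (-0.91, adjusted p = 0.0367) and Btg2 (-0.91, adjusted p = 0.0410); Psrc1, Gtse1 and Epha2 were too dim in the glands to enter it. Within each pair Trp53inp1 and Btg2 were lower in the transgenic gland in 3 of 3. With the block in the fit of all 9 tissue arrays, 2 passed, Sesn1 (adjusted p = 0.0345) and Psrc1 (adjusted p = 0.0271). The share of all genes that passed with a block is not given here, so these counts are not read as particular to the members. Over all settings and fits without an array, between 394 and 1177 genes passed in transgenic against NMRI glands. Milk protein markers (6 genes) had a mean log2 signal between 13.8 and 14.0 in NMRI glands and between 12.3 and 12.7 in transgenic glands, and their part in these differences was not tested. Same-numbered glands also had similar Gapdh ratios, at 12.9 and 10.7, 2.28 and 2.49, and 40.3 and 22.5 in pairs 1 to 3.

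**Figure D2:**
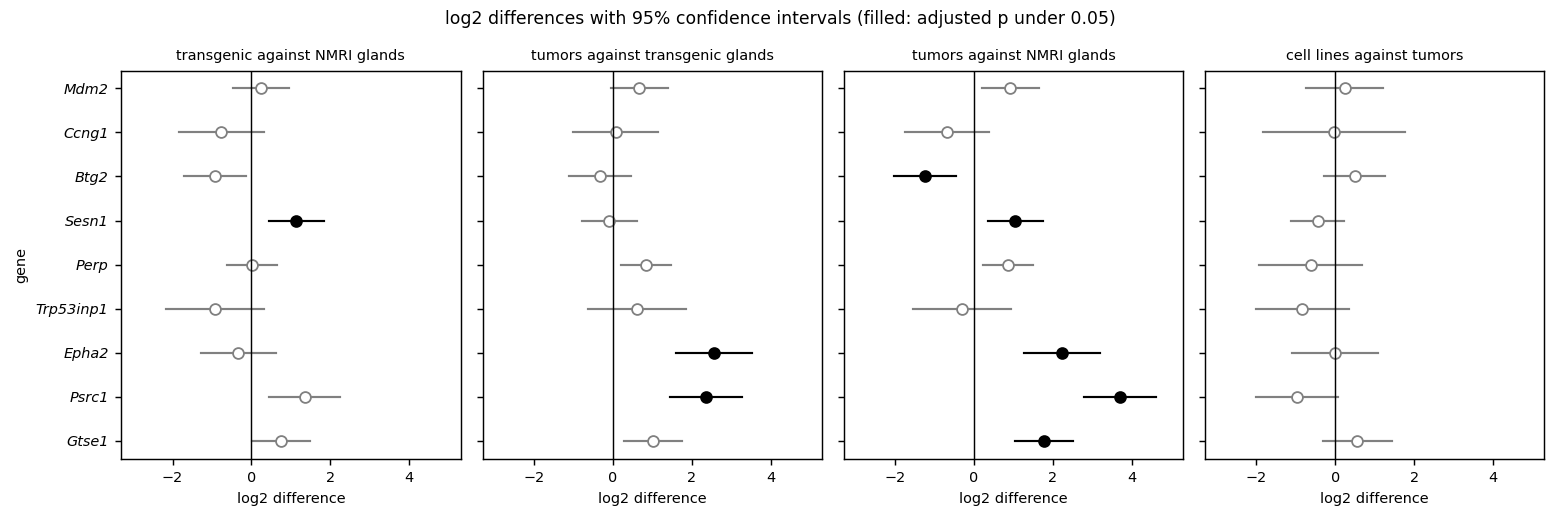
log2 differences (points) with 95% confidence intervals (lines) of the 9 genes in the 4 tested comparisons, first group minus second. Filled points passed an adjusted p of 0.05; Sesn1 is the 1 filled point for transgenic against NMRI glands, Epha2 and Psrc1 are filled for tumors against transgenic glands, 5 genes are filled for tumors against NMRI glands and none for lines against tumors.

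A comparison of tumors against transgenic glands asked what separates the cancers from tissue with the same transgene. Epha2 and Psrc1 rose in tumors, and no member fell. These 2 of 9 passed against 2.95% of the 7899 genes tested (1.24% as higher, 1.71% as lower). To be tested, a gene had to exceed a signal of 139.9 on at least 3 of the 9 tissue arrays. All 9 genes did, but Epha2, Psrc1 and Gtse1 did so on 4 arrays, of which 3 were the tumors, so their entry leaned on the group in which they were high. The median log2 difference of the 9 was 0.67 and that of all genes tested was -0.0043.

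Epha2 was at 45.5, 64.0 and 146.4 in transgenic glands 1 to 3 and at 560.7, 718.6 and 278.8 in tumors 1 to 3. Every tumor exceeded every gland of either kind, and the log2 difference was 2.57 ± 0.43 (5.93-fold, adjusted p = 0.0104). Psrc1 reached 650.5, 1347.4 and 472.5 in tumors, above all glands by 2.35 ± 0.41 (5.11-fold, adjusted p = 0.0122). A second Psrc1 probe set read 84.4, 91.4 and 93.7 in transgenic glands and 189.7, 512.6 and 200.2 in tumors, again without overlap (1.58 ± 0.39, adjusted p = 0.0702), and the third was under the floor on all 12 arrays. Without tumor 2 neither gene passed (adjusted p = 0.0643 for Epha2 and 0.0588 for Psrc1), and Psrc1 did not pass without transgenic gland 1 (0.0540) or with the Gapdh ratio as a covariate (2.02, adjusted p = 0.0811). Without a filter on dim probe sets neither passed (0.100 and 0.113).

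Gtse1 and Perp were also higher in all 3 tumors than in all transgenic glands but missed the threshold. Gtse1 was at 163.5, 279.1 and 163.9 in tumors (log2 difference 1.03 ± 0.34, adjusted p = 0.150). Perp was at 369.4, 386.5 and 354.2 in transgenic glands and at 469.5, 948.1 and 660.4 in tumors (0.85 ± 0.29, adjusted p = 0.171). In all, 4 of the 9 genes stood without overlap, all higher, while 19.6% of all genes did in either direction (8.75% as higher and 10.9% as lower).

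The remaining 5 genes overlapped. Mdm2 was at 414.2, 574.1 and 436.4 in transgenic glands and at 1166.9, 784.1 and 461.4 in tumors, so tumor 3 stayed at the level of the glands (0.67 ± 0.33, adjusted p = 0.342). Ccng1 spread more than any difference between groups, with 924.4, 1479.3 and 393.7 in tumors and a log2 difference of 0.07 ± 0.49. Trp53inp1 was at 469.2, 1113.6 and 521.8 in tumors (0.60 ± 0.56), Sesn1 at 418.8, 466.1 and 500.3 (-0.09 ± 0.32) and Btg2 at 466.1, 505.6 and 300.5 (-0.33 ± 0.36). The direction of Ccng1 and Sesn1 turned with 1 array left out, and that of Btg2 with the mean of its probe sets.

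Beside these differences, the adipocyte markers were lower in tumors, between 7.01 and 9.30 against 10.3 to 11.4 in transgenic glands on the mean log2 scale, with 2 to 4 of 7 at the floor in each tumor. The milk protein markers, which show secretory differentiation, were between 8.30 and 9.55 in tumors and between 12.3 and 12.7 in transgenic glands. Their part in the results was not tested.

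Against NMRI glands, tumors showed the widest set of differences. Of the 9 genes 4 rose, namely Psrc1, Gtse1, Epha2 and Sesn1, and Btg2 fell. Among all 7899 genes tested 24.7% passed, 12.9% as higher and 11.8% as lower. The same 5 genes were those without overlap between the groups, as were 43.9% of all genes (22.3% as higher and 21.6% as lower). This comparison shares its tumors with the one above and its NMRI glands with the first, so the 3 are not independent.

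Psrc1 had the largest difference, at least 13.0-fold (log2 difference 3.70 ± 0.41, adjusted p = 0.00012), and its second probe set rose as well (2.03 ± 0.39, adjusted p = 0.00448). Epha2 was at 95.1, 84.0 and 135.3 in NMRI glands and rose 4.70-fold in tumors (2.23 ± 0.43, adjusted p = 0.00389). Gtse1 was at least 3.40-fold higher (1.77 ± 0.34, adjusted p = 0.00345). These 3 genes passed under each of the 12 other settings and in each of the 9 fits without an array. They exceeded the signal needed for the test in the 3 tumors and 1 transgenic gland, but in no NMRI gland. Their entry thus leaned on the group in which they were high, and the steady calls are not separate evidence. With the mean of its 3 probe sets, of which 1 was under the floor on every array, the Psrc1 difference was 1.91.

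The calls for Sesn1 and Btg2 were less stable. Sesn1 was higher in tumors by 1.05 ± 0.32 (adjusted p = 0.0328). But its second probe set read 97.4, 101.1 and 180.3 in NMRI glands and 134.6, 117.2 and 91.1 in tumors and overlapped fully (-0.10 ± 0.39). Its dimmest probe set, too dim to be tested, read between 86.9 and 132.7 in tumors and between 52.0 and 84.4 in NMRI glands. The Sesn1 call was lost without NMRI gland 1 or 2 or any 1 tumor (adjusted p between 0.0575 and 0.124). Btg2 was lower in all 3 tumors than in all NMRI glands (-1.25 ± 0.36, adjusted p = 0.0261). Its dimmer probe set, at 152.3, 112.2 and 163.2 in NMRI glands and 236.3, 124.3 and 115.1 in tumors, showed no such difference (0.09 ± 0.32, adjusted p = 0.867). The Btg2 call was lost without NMRI gland 2 or 3, without tumor 3 (adjusted p between 0.0826 and 0.0970) and with the Gapdh ratio as a covariate (-1.04, adjusted p = 0.131).

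Mdm2 and Perp fell just short. Mdm2 was at 481.8, 371.3 and 351.1 in NMRI glands, and tumor 3, at 461.4, lay below the highest of them (0.92 ± 0.33, adjusted p = 0.0636). Without tumor 3 the Mdm2 difference was 1.27 and passed (adjusted p = 0.0140). The dimmer Mdm2 probe set overlapped between the groups, with means of 214.2 in tumors and 200.8 in NMRI glands (0.20 ± 0.51, adjusted p = 0.808). Perp overlapped because NMRI gland 2, at 486.2, exceeded tumor 1 (0.86 ± 0.29, adjusted p = 0.0524), and it passed without either of these arrays (adjusted p = 0.0421 and 0.0258). Ccng1 (-0.69 ± 0.49) and Trp53inp1 (-0.31 ± 0.56) did not pass.

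Where each probe set was tested on its own, Sesn1 no longer passed in transgenic against NMRI glands (adjusted p = 0.0531). The other calls of members stayed. In tumors against NMRI glands 5 of the 15 tested probe sets of the members rose and 1 fell, and 23.0% of all 11651 probe sets passed (12.5% as higher and 10.5% as lower). In tumors against transgenic glands 2 of the 15 rose, those of Epha2 and the brightest of Psrc1, and 2.30% of all passed (1.03% as higher and 1.27% as lower). In transgenic against NMRI glands 0 of the 15 passed and 3 had an unadjusted p under 0.05, where 9.15% of all passed (5.62% as higher and 3.53% as lower). Between lines and tumors 0 of 14 passed and 2 had an unadjusted p under 0.05, and 2.36% of all 11004 passed (0.618% as higher and 1.74% as lower).

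Genes of cell division rose against NMRI glands in transgenic glands and tumors alike. All 11 measured genes of a proliferation list rose in both, with median log2 differences of 3.67 and 3.92. Of all genes tested 10.1% and 24.7% passed in either direction. Birc5, Bub1, Ccnb2, Cdc20, Kif11, Plk1 and Top2a exceeded the signal needed for the test in no NMRI gland. Their entry leaned on the groups in which they were high, so their calls against NMRI glands are not separate evidence. Between tumors and transgenic glands 0 of 11 passed, where 2.95% of all genes did, and the median of the list was 0.19. In that last comparison 1 of the 11, Plk1, had an unadjusted p under 0.05. The smallest p-values against NMRI glands were those of Top2a, a topoisomerase (log2 difference 4.28 in transgenic glands and 4.46 in tumors), the cyclin gene Ccnb2 (3.67 and 4.16, with all NMRI glands at the floor), Cdc20, an activator of anaphase (4.15 and 4.31), Cdk1, the mitotic kinase (3.81 and 4.08), Birc5, survivin (3.98 and 3.92), and the cyclin gene Ccna2 (3.30 and 3.49). Mki67, a marker of dividing cells, was at 185.5 ± 173.2 in NMRI glands, 3488.7 ± 488.6 in transgenic glands and 2559.4 ± 226.4 in tumors. The part of proliferation in the Psrc1 and Gtse1 values was not tested.

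A longer list of other p53 targets (46 genes, 39 with a probe set, 29 tested in tissue) held genes that rose and genes that fell. In transgenic against NMRI glands 2 rose and 1 fell, or 10.3% of the 29, about the 10.1% of all genes. They were Ckap2, a spindle protein gene (2.50, adjusted p = 4.69e-05), Apaf1, the scaffold of the apoptosome (0.89, adjusted p = 0.0305), and the repair nuclease gene Ercc5 (-0.80, adjusted p = 0.0432), the last of which passed only without tumor 3 among the 9 fits without an array and did not pass with the replicate block in the glands only (adjusted p = 0.0545). Ckap2 exceeded the signal needed for the test in no NMRI gland, so its entry leaned on the groups in which it was high. The Apaf1 call was lost without any 1 of the NMRI glands or transgenic gland 1 or 2 (adjusted p between 0.0654 and 0.119). In tumors against transgenic glands 4 rose and 0 fell, or 13.8%, where 2.95% of all genes passed. Cdkn1a, which encodes the cell cycle inhibitor p21 and is the classical p53 target, was at 107.2, 190.4 and 104.9 in transgenic glands and at 934.2, 2125.8 and 373.4 in tumors, without overlap (2.81 ± 0.60, adjusted p = 0.0325). The others were Igfbp3, an insulin-like growth factor binding protein (2.83), which exceeded the signal needed for the test in the tumors alone and so had to differ, Ddit4, an inhibitor of mTORC1 (2.30), and Thbs1, the matrix protein thrombospondin (2.21). Without tumor 2 none of these passed, and Igfbp3 was then too dim to be tested. With all arrays the unadjusted p was under 0.05 for 12 of the 29. The share of all genes with an unadjusted p under 0.05 is not given here for any comparison. Counts of unadjusted p-values are thus not read as particular to a list. The Cdkn1a call was lost without NMRI gland 2, transgenic gland 1 or 3, or tumor 1 or 2 (adjusted p between 0.0513 and 0.137), and with the mean of its probe sets (2.00, adjusted p = 0.0990). The Ddit4 call was lost without transgenic gland 1 or 3 or tumor 2 (adjusted p between 0.0809 and 0.117), and the Thbs1 call without any 1 of the transgenic glands or tumors (adjusted p between 0.0591 and 0.104). With the Gapdh ratio as a covariate Cdkn1a (adjusted p = 0.139), Ddit4 (1.66, adjusted p = 0.115) and Thbs1 (adjusted p = 0.197) did not pass, and 1 of the 4 calls was left. Bax, another well-known target, was not analysed here because no probe set was paired with it.

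Against NMRI glands 8 of the 29 other targets rose in tumors and 1 fell, where 24.7% of all genes passed. The smallest p-values belonged to Ckap2 (3.08), Igfbp3 (3.00, at the floor in all NMRI glands and so at least 7.99-fold higher), Ndrg1, a stress-responsive gene, which fell (-1.94), Cdkn1a (3.02), Ddit4 (2.21) and Thbs1 (2.24). Cdkn1a stood at 40.6, 117.3 and 204.3 in NMRI glands and overlapped with the transgenic glands (0.21 ± 0.60, adjusted p = 0.864).

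Among 19 tested regulators and relatives of p53, 1 passed in transgenic against NMRI glands (10.1% of all genes), 2 in tumors against transgenic glands (2.95%) and 4 in tumors against NMRI glands (24.7%). With the replicate block in the glands only, 3 passed in the first of these. The share of all genes that passed in that fit is not given here, so this count is not read as particular to the list. Mdm4, the partner of Mdm2 that also restrains p53, passed in no comparison, with 184.2 ± 77.6 in NMRI glands, 225.1 ± 51.4 in transgenic glands and 193.6 ± 58.0 in tumors. Cdkn2a, which encodes the Mdm2 inhibitor p19ARF and the kinase inhibitor p16, was under the floor in all 6 glands and at 439.7, 293.7 and 181.2 in tumors, at least 4.98-fold higher. It was tested only because the tumors exceeded the signal needed, so it had to differ, and it is counted above but given here as a description. Trp63, a p53 family gene of basal epithelium, fell in tumors against transgenic glands (-1.93, adjusted p = 0.0210). It exceeded the signal needed for the test in 3 NMRI and 2 transgenic glands but in no tumor. Its entry thus leaned on the groups in which it was high, and its fall is given as a description. The Trp63 call was lost without transgenic gland 1 or 3 or tumor 2 or 3 (adjusted p between 0.0535 and 0.0778). It was also lost with the Gapdh ratio as a covariate (-1.46, adjusted p = 0.123). Chek1, a checkpoint kinase gene, rose against NMRI glands by 2.60 in transgenic glands and 2.61 in tumors. No NMRI gland exceeded the signal needed for the test of Chek1, so its entry leaned on the groups in which it was high. Rpl11, a ribosomal protein gene whose product binds Mdm2, was lower in tumors than in NMRI glands (-0.73). With quantile normalization the Rpl11 difference became -0.24 and did not pass (adjusted p = 0.343). Basal and myoepithelial markers (7 genes) were between 6.45 and 7.20 in tumors on the mean log2 scale and between 8.76 and 8.80 in transgenic glands, and their part in the Trp63 value was not tested.

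The 3 tumors differed among themselves. Tumor 2 held the highest signal of the 3 for 7 of the 9 genes, where 32.9% of all genes were highest in it, and it was lowest for 0. Tumor 3 was lowest for 5 (35.8% of all genes) and tumor 1 for 4 (29.3%). Mdm2 was highest in tumor 1 and Sesn1 in tumor 3. Ccng1 showed the spread most clearly, at 1479.3 in tumor 2 and 393.7 in tumor 3, and Cdkn1a, no member of the set, had the same order with 2125.8 and 373.4.

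The lines were set against the tumors to show whether p53 target genes differ between cancers and cells grown from cancers. By limma's test 0 of the 9 genes passed and 0 had an unadjusted p under 0.05, while 2.30% of 7344 genes tested passed (0.422% as higher and 1.88% as lower). For 0 of the 9 were lines and tumors without overlap, against 23.5% of all genes (11.2% as higher and 12.3% as lower). The largest log2 differences were those of Psrc1, at 527.4, 398.3 and 266.2 in ME-A, the revertant and the retransformed line, in that order (-0.96 ± 0.44, adjusted p = 0.329), and Trp53inp1, at 679.3, 224.0 and 314.7 (-0.84 ± 0.50). Epha2 had nearly equal means (-0.0061, 95% interval from -1.09 to 1.08). The dimmer Btg2 probe set was higher in all 3 lines, at 306.6, 460.6 and 585.7, than in all tumors (1.54 ± 0.38), but it did not pass either (adjusted p = 0.106). Of 31 other p53 targets 1 passed, Igfbp3, which was at the floor in all lines and at least 7.99-fold lower than in tumors. It entered through the tumors alone, and so had to differ, and without ME-B it did not pass (adjusted p = 0.0548). Of the 31, 11 had an unadjusted p under 0.05, a count without the share of all genes beside it. Of the p53 regulators and relatives 0 of 18 passed and 1 had an unadjusted p under 0.05, and of the proliferation genes 0 of 11 and 2. The lines are not replicates of each other, which limits what this comparison can detect.

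ME-B-T/t was compared with ME-B as the retransformed against the revertant cells, with 1 array each and no test. Ccng1 and Perp were far lower in ME-B-T/t, Epha2 and Gtse1 about as much as the fold set as the limit, and no member was higher by that fold. Of the 9 genes 4 were lower by 2-fold or more and 0 higher, while 13.0% of 7505 genes passed that fold, 7.85% as higher and 5.12% as lower. The median log2 difference of the 9 was -0.99 and that of all genes 0.05. These differences have no replicate check.

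Ccng1 read 1539.0 in ME-B and 255.3 in ME-B-T/t, 6.03-fold lower. Its other probe sets lay on the same side, from 703.3 to 171.5 (4.10-fold) and from 908.5 to 354.1 (2.57-fold). Perp read 877.1 and 195.1, 4.49-fold lower. In ME-A Ccng1 stood near ME-B, at 1271.8, and Perp lay between the other lines, at 472.9. The ME-B-T/t values of Perp and of the brightest Ccng1 probe set were below those of all 9 tissue arrays, while the Ccng1 probe set at 354.1 was above all 3 transgenic glands (139.7, 261.7 and 300.3).

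Gtse1, at 385.8 and 187.3, was 2.06-fold lower in ME-B-T/t and Epha2, at 805.0 and 399.6, was 2.01-fold lower, which with the signals as deposited was no longer past 2-fold (log2 difference -0.97). Mdm2, at 1165.9 and 585.5, was 1.99-fold lower and so just outside the limit, and its dimmer probe set was 1.42-fold lower (387.3 and 273.3). Psrc1 was 1.5-fold lower. Sesn1 (284.5 and 480.7, 1.69-fold), Btg2 (530.1 and 815.7, 1.54-fold) and Trp53inp1 (224.0 and 314.7, 1.40-fold) were higher in ME-B-T/t. The dimmest Sesn1 probe set, at 135.7 in ME-B-T/t and under the floor in ME-B, was at least 2.36-fold higher.

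**Figure D3:**
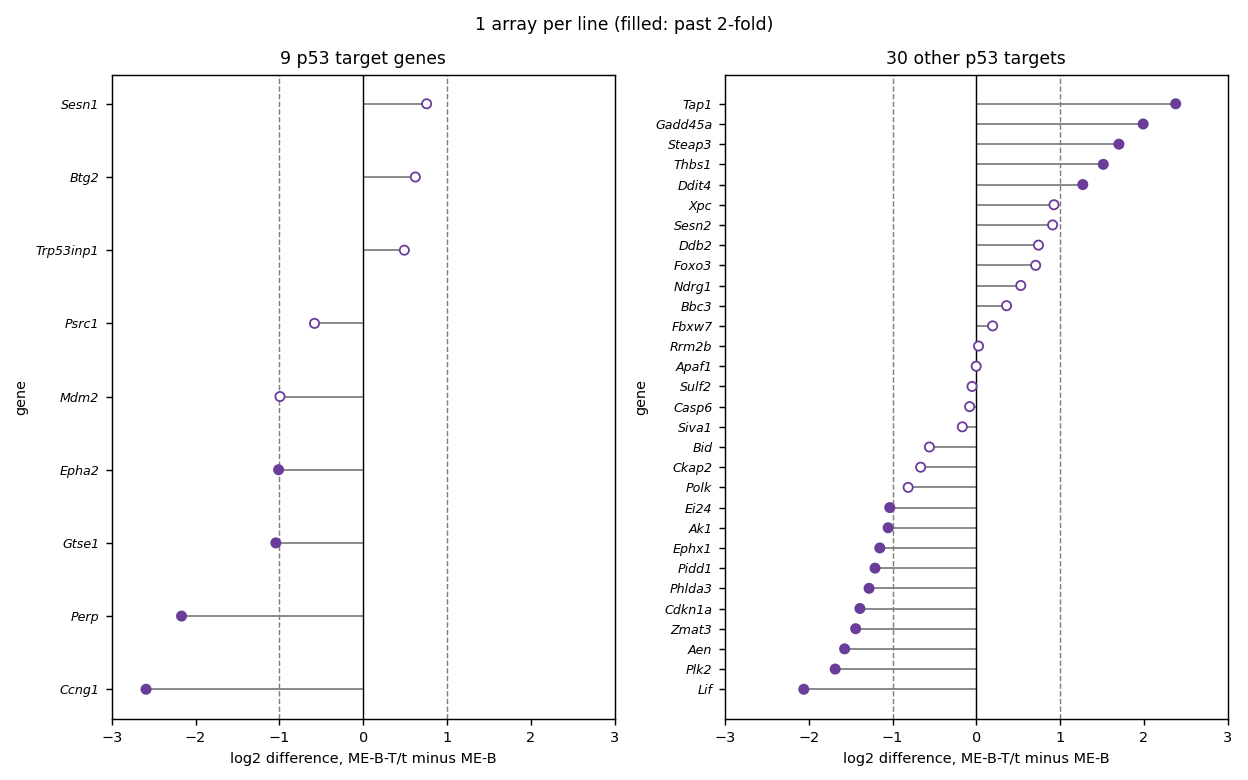
log2 differences of ME-B-T/t minus ME-B, 1 array per line, for the 9 measured p53 target genes (left) and 30 other p53 targets (right), sorted by value. Dashed lines mark 2-fold and filled points lie past it; 4 of 9 genes are past it on the lower side and 0 on the higher side on the left, and 10 lower and 5 higher on the right.

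Of 30 other p53 targets measured in these lines, 10 were lower in ME-B-T/t by 2-fold or more and 5 higher, with a median log2 difference of -0.07. Of all 7505 genes 5.12% were lower by that fold and 7.85% higher. Cdkn1a was lower, at 1721.1 in ME-B and 657.0 in ME-B-T/t (2.62-fold). Among the other lower genes, not all of which are named, were Plk2, a stress-induced polo-like kinase gene (3.21-fold), Aen, a p53-induced nuclease gene (2.97-fold), and Zmat3, an RNA-binding protein gene (2.71-fold). Phlda3, an inhibitor of the kinase Akt (2.43-fold), and Lif, a cytokine gene that was under the floor in ME-B-T/t (at least 4.17-fold), were lower too. The higher genes were Tap1, the peptide transporter of antigen presentation (5.20-fold), Gadd45a, a growth arrest gene (3.97-fold), Steap3, an iron reductase gene (3.25-fold), Thbs1 (2.86-fold) and Ddit4 (2.41-fold). Of 18 p53 regulators and relatives, Trp63 was 2.98-fold higher and 0 were lower. None of the 11 proliferation genes passed 2-fold, with a median of -0.37.

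With ME-A as the reference, Trp53inp1 passed 2-fold in both other lines, beside Epha2 in ME-B and Ccng1 and Perp in ME-B-T/t. In ME-B 2 of the 9 genes passed 2-fold, where 20.4% of 7580 genes did (9.05% as higher and 11.3% as lower). Epha2 was 2.33-fold higher (344.8 in ME-A and 805.0 in ME-B) and Trp53inp1 3.03-fold lower (679.3 and 224.0), though its dimmer probe set was 1.36-fold lower (85.8 and 63.1). In ME-B-T/t 3 of the 9 passed, where 24.4% of 7794 genes did (12.8% as higher and 11.7% as lower). All 3 were lower, Ccng1 by 4.98-fold (3.08-fold and 1.99-fold by its other probe sets), Perp by 2.42-fold and Trp53inp1 by 2.16-fold, the last of which was not past 2-fold with the mean of its probe sets (log2 difference -0.47) and was 1.13-fold higher by its dimmer one. Cdkn2a, at 564.7 in ME-A, was under the floor in ME-B and ME-B-T/t, at least 9.83-fold lower in each. Both of these lines also had lower luminal epithelial markers than ME-A, as given above, and the part of that difference was not tested.

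Over the 12 arrays Psrc1 varied most of the 9 genes, with a standard deviation of 1.54 on the log2 scale, followed by Epha2 with 1.37 and Gtse1 with 1.01; Sesn1, with 0.59, varied least. For these 3 genes the most similar profiles among 8186 other genes were sought by the root mean square difference of mean-centred log2 values over the 12 arrays. Nearest to Psrc1 were Kifc3 (0.56), Plod2 (0.59) and Sh3bp1 (0.61). Nearest to Epha2 were Anxa3 (0.55), Sh3bp1 (0.66) and Nectin3 (0.66), and nearest to Gtse1 were Pgam1 (0.36), Stip1 (0.38) and Traf7 (0.38). Genes with a smaller spread lie nearer to each other by this measure, so the distances are not comparable between the 3.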

How the data were processed

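Linear probe set intensities were deposited; the submitters' processing notes name MAS5 as the authors' tool for them. Its version, scaling target and detection calls were not stated there. All 12 arrays were brought to a common mean after trimming 2% of probe sets at each end. A floor of 57.4, the pooled 30th percentile, replaced lower signals before the log2 step. Of 22690 probe sets, 64 controls, 691 with several genes and 1555 with none were left out. The probe set with the highest mean stood for its gene, kept if at least 3 arrays exceeded the pooled median of 139.9 (1 array in pairs of lines). The 9 tissue arrays were fitted together (6 residual degrees of freedom), and lines and tumors as 2 classes (4), with limma 3.58.1 in R 4.3.3 (lmFit, eBayes with an intensity trend, two-sided, Benjamini-Hochberg over all genes tested). Lines were compared with each other without a test, at 2-fold. The number of arrays limits the precision. The code was tested on simulated data. Plots used matplotlib 3.10.9 and Python 3.11.15.

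The members and gene lists were chosen with earlier results of these data known. Named were all members, and from the other lists the genes that passed, or the 6 with the smallest p where over 6 passed, and always Cdkn1a, Bax, Cdkn2a, Mdm4 and Mki67; in pairs of lines, genes of the other lists were picked after their values were seen. Same-numbered NMRI and transgenic glands correlated at 0.22, 0.37 and 0.37, so their numbers were taken to pair them; tumor numbers gave correlations between -0.17 and 0.33 with the glands and were not. Alternatives were other scalings, floors, filters, probe set rules, variance models, array weights, a replicate block, the Gapdh ratio as a covariate and fits without each array.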

Additional observations from a re-analysis of the deposited data

How the results depend on the processing

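Precision is limited by 3 arrays a group and 1 a line, by signals near the floor for Epha2, Gtse1 and Psrc1 in glands, and by RNA of unequal quality. The number of members that passed in transgenic against NMRI glands, 1, became 0 with quantile normalization, with no filter, with every probe set on its own, with the mean of all probe sets and with only the groups compared; it became 3 with the floor at the 20th percentile, 2 with the replicate block and 3 with the replicate block in the glands only. For tumors against transgenic glands, 233 genes passed, and 71 with no filter, 124 with only the groups compared and 101 with the Gapdh ratio as a covariate; the 2 members became 0 with no filter and 1 with the covariate. For tumors against NMRI glands, 5 members became 3 with no filter. For lines against tumors, 169 genes became 91 with no filter, 353 with array weights and 429 with all 12 arrays in 4 classes, and 0 members passed under any of these. With 1 array left out, members that passed ranged from 0 to 1 in transgenic against NMRI glands and from 0 to 2 in tumors against transgenic glands. Genes that passed ranged from 394 to 807, from 69 to 228, from 1227 to 2279 and from 0 to 779 in the 4 comparisons. The replicate block for tumors used numbers that were not taken to pair with those of the glands. It left Epha2 and Psrc1 past the threshold against transgenic glands. It also let Mdm2 (adjusted p = 0.0461) and Perp (0.0303) pass against NMRI glands.

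Directions turned in log2 differences of which none had passed. Some of these were near 0, but others were not, such as 0.37 for Mdm4 and -0.34 for Epha2 in transgenic against NMRI glands. In transgenic against NMRI glands Perp turned to -0.068 with quantile normalization and -0.037 with the Gapdh covariate, and Epha2 to 0.016 and Cdkn1a to -0.0083 with the floor at the 40th percentile. In tumors against transgenic glands Sesn1 turned to 0.085 with array weights and 0.17 with the covariate, Mdm4 to 0.40 with the covariate and Btg2 to 0.032 with the mean of all probe sets. Against NMRI glands Trp53inp1 turned to 0.0078 with that mean. In lines against tumors Ccng1 turned to 0.0057 with signals as deposited, 0.32 with the mean of all probe sets and 0.13 with array weights, Epha2 to 0.0012 with quantile normalization, 0.036 as deposited and 0.22 with array weights, and Mdm4 to 0.0021 as deposited. With 1 array left out, differences ranged from -0.12 to 0.22 for Perp, -0.26 to 0.65 for Cdkn1a and -0.048 to 0.62 for Mdm4 in transgenic against NMRI glands. They ranged from -0.36 to 0.60 for Ccng1 and -0.32 to 0.077 for Sesn1 in tumors against transgenic glands, and from -0.84 to 0.13 for Trp53inp1 and -0.28 to 0.39 for Mdm4 against NMRI glands. In lines against tumors they ranged from -0.11 to 0.56 for Mdm2, -0.56 to 0.78 for Ccng1, -0.40 to 0.28 for Epha2, -0.29 to 0.96 for Cdkn1a and -0.18 to 0.19 for Mdm4. The cause of these changes was not tested.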
